A study of Mus musculus with 8 samples.

Results

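Lipogenesis builds fatty acids from acetyl-CoA. The 10 genes described here encode its enzymes and regulators in the mouse: Srebf1 and Thrsp as regulators, Acly and Me1 for acetyl-CoA and NADPH supply, Acaca, Acacb and Fasn for malonyl-CoA and palmitate, and Elovl6, Scd1 and Scd2 for elongation and desaturation. They were chosen by gene symbol, matched to Ensembl identifiers, and are 10 of the 49315 genes in each deposited count file. Gastrocnemius, the large calf muscle, came from C57BL/6 mice aged 3, 12, 24 or 30 months, with 2 RNA sequencing libraries per age and 8 libraries in all. No genotype or treatment differs between the ages in the labels, and the series asks how this muscle's transcriptome differs with age. Whether the libraries of an age derive from different animals is not in the labels, and p-values therefore cover only the spread among these libraries, which may be technical.

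In lipogenesis, ATP citrate lyase turns exported citrate into cytosolic acetyl-CoA, acetyl-CoA carboxylase makes malonyl-CoA, and fatty acid synthase joins these units into palmitate with NADPH from malic enzyme and other sources. Elongases and stearoyl-CoA desaturases then make longer and monounsaturated fatty acids. The main sites are liver and adipose tissue. In muscle fibres, malonyl-CoA made by the carboxylase that Acacb encodes is best known as an inhibitor of carnitine palmitoyltransferase 1, the entry step of fatty acids into mitochondria. Whole muscle also holds fat cells and nerve sheath cells that make fatty acids, and in bulk RNA fewer cells of a type and less RNA per cell cannot be told apart.

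Library totals ran from 42404254 to 59245029 counts, and levels are given as CPM, counts scaled to library size with TMM factors of 0.867 to 1.13. All 10 genes were among the 19571 that passed the filter on low counts. Skeletal muscle markers, 10 genes such as Ttn, Myh4 and Ckm, summed to 241884 to 392888 CPM, so the labelled tissue and the marker levels match. The libraries fell into 2 sets by the summed level of 12 kidney genes such as Lrp2 and Kap. That sum was 54.0 and 17.6 CPM in the 3 month libraries, 5.80 and 0.780 in those of 12, 4.79 and 0.721 in those of 24, and 0.791 and 4.04 in those of 30 months, replicate 1 first here and below. The 3 month pair and 1 library of each later age therefore lay above 1 CPM (replicate 1 for 12 and 24 months, replicate 2 for 30 months), and the other 3 lay below it. Liver markers summed to 7.76 to 18.4 CPM, of which Cyp2e1 alone gave 7.43 to 17.5 CPM, and Ucp1, the defining brown fat gene, had no count in any library.

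Of the 10 genes, 8 had a promoter in the RefSeq table on GRCm38.p6, and 4 windows of 3 of them are shown: Fasn has the lowest adjusted p below, Acly has the highest Pearson r with it over the libraries, and Srebf1 is the regulator with more than 1 start. Each runs 5′ to 3′ on the gene's strand over the 250 bases before an annotated start, and capitals mark motif matches on either strand (CCAAT or GGGCGG).
Fasn, chr11:120824548-120824797, minus strand: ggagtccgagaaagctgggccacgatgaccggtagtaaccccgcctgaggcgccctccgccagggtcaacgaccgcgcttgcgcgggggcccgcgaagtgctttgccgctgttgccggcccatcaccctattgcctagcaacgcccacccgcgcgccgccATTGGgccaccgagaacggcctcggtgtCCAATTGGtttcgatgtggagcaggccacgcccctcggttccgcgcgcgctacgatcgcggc
Acly, chr11:100528001-100528250, minus strand: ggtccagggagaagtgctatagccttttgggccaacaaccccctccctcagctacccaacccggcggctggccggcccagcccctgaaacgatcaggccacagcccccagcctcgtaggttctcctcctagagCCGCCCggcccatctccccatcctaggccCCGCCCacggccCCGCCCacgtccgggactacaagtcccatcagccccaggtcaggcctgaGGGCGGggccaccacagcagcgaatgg
Srebf1 at the gene's first base, chr11:60222582-60222831, minus strand: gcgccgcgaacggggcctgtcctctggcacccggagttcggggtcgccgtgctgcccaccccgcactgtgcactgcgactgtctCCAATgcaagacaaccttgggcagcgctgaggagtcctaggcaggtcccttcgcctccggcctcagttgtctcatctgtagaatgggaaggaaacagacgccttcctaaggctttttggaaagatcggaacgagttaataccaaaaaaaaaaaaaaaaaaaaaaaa
Srebf1 at the farther inner start, chr11:60210472-60210721, minus strand: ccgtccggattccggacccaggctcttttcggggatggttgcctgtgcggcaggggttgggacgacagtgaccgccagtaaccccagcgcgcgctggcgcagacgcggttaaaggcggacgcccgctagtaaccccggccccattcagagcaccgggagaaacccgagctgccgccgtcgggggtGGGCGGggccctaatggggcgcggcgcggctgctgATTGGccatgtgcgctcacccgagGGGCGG

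The motifs searched were CACGTG (the E-box that USF factors bind), TCACNCCAC (a sterol response element form), GGGCGG (GC box), CCAAT (the NF-Y element) and TATAAA. Over all 32817 windows of this length in the table, 6.02%, 1.05%, 32.7%, 33.8% and 12.4% hold them, in that order. The Fasn window held 3 matches to CCAAT, of which 2 overlap on opposite strands, and none to GGGCGG. Acly had 4 matches to GGGCGG. Thrsp had 2 matches to CCAAT, and Elovl6 and Acaca matched none of the 5 motifs. The only windows of Acaca and Acacb belong to starts 65766 and 18983 bases inside these genes. The bases before the first base of Acaca and Acacb were therefore not searched. Srebf1 has 2 inner starts: that 12110 bases inside the gene, shown above, had 2 matches to GGGCGG and 1 to CCAAT, and that 1954 bases inside had 2 to GGGCGG. The window at its first base had 1 to CCAAT. No window of the 8 genes matched CACGTG or TCACNCCAC, which says only that these letters are not there. Counts per gene do not tell the starts of Srebf1 apart.

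Per exon length, the genes spanned a wide range of levels in muscle. The median RPKM, CPM divided by exon length in kilobases, was 35.0 for Me1, 31.8 for Acacb and 28.3 for Scd1. These 3 had overlapping ranges over the libraries, so their order is not fixed. Their lowest value, 16.8 RPKM for Scd1, was above the highest of the other 7 genes, 16.3 RPKM for Fasn. Srebf1 (8.79), Fasn (7.64), Scd2 (6.63), Acly (4.99) and Thrsp (4.59 RPKM) followed, each with a range that overlapped its neighbour's. Acaca had a median of 2.64 RPKM. Elovl6 was the lowest at 0.266 RPKM, with 48 to 213 counts per library, and its range did not reach that of Acaca.

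**Figure D1:**
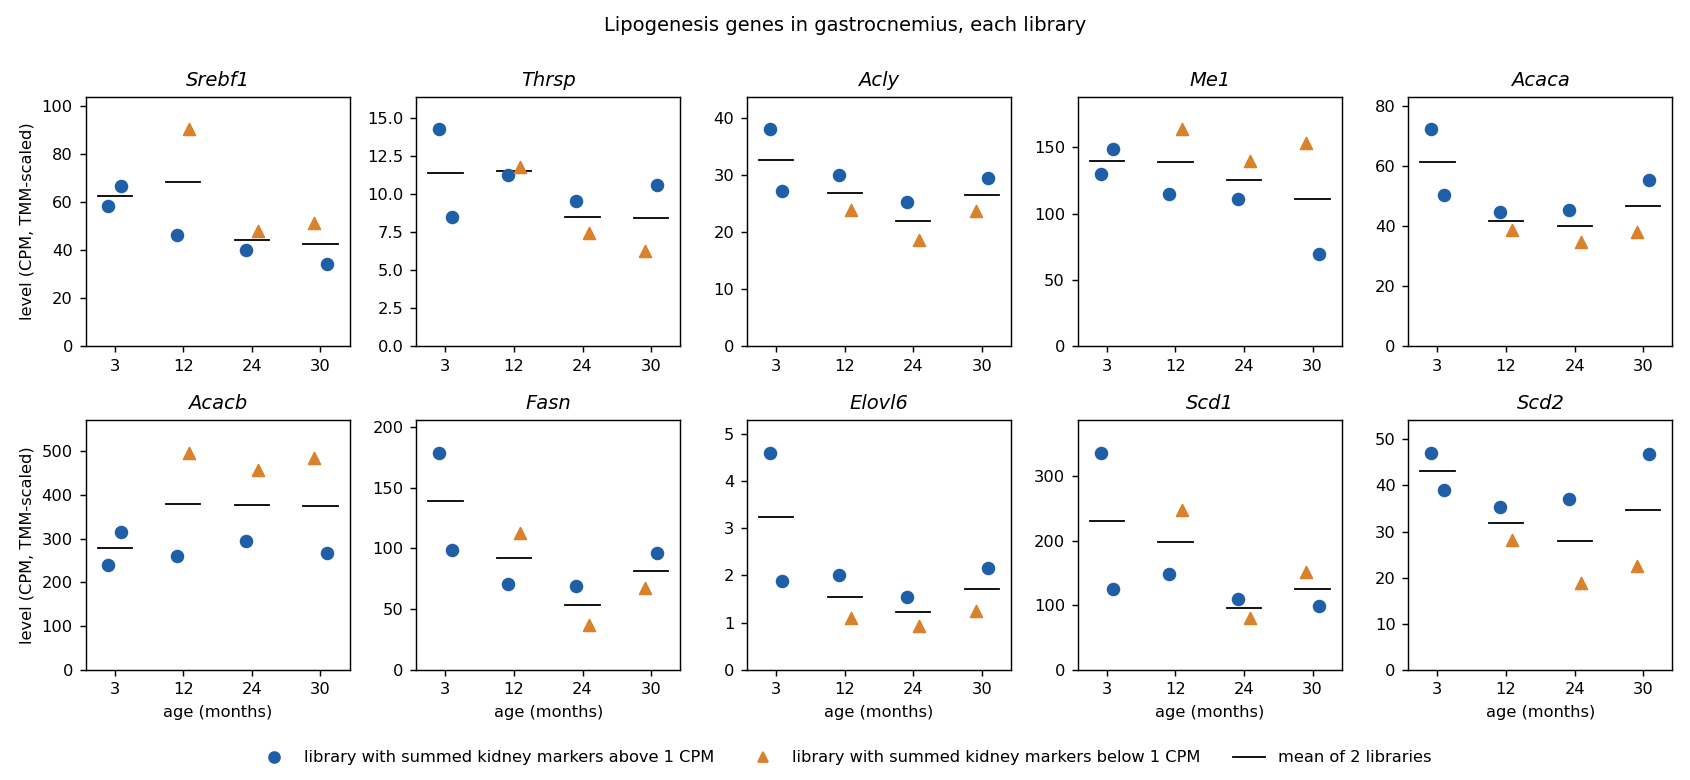
Level (CPM, linear axis from 0) of each of the 10 genes in every library against age in months; bars mark the mean of 2 libraries, and symbols show whether summed kidney markers were above or below 1 CPM. Fasn and Scd1 have their highest library at 3 months (179 and 337 CPM), and the 3 libraries below 1 CPM of kidney markers hold the highest Acacb levels (457 to 497 CPM).

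Against 3 months, most of the genes had lower levels at every later age, with Fasn, Elovl6 and Scd1 the lowest relative to 3 months at 24 and 30 months, but no gene passed the test. The edgeR quasi-likelihood test over all 19571 genes, with a Benjamini-Hochberg adjusted p below 0.05 as the threshold, called 0 of 10 genes at 30 months, against 0.148% of all genes, 0 of 10 at 24 months, against 0.102%, and 0 of 10 at 12 months, against 0.0409%. The log2 fold change was below 0 for 9 of 10 genes at 30 months, 9 of 10 at 24 months and 7 of 10 at 12 months, against 48.6%, 48.1% and 49.5% of all genes. Medians over the 10 genes were −0.41 at 30 months, −0.59 at 24 months and −0.25 at 12 months on the log2 scale, and medians over all genes were 0.0093, 0.015 and 0.0038. The 3 comparisons share the 3 month libraries. Without replicate 1 of 3 months, the library with the most kidney transcripts, the medians were −0.13, −0.365 and −0.06, and 8, 9 and 6 genes stayed below 0.

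At 24 months the differences were widest. Both 24 month libraries lay below both 3 month libraries for 7 of 10 genes, against 19.4% of all genes. The 7 were Fasn, Elovl6, Scd1, Scd2, Acaca, Acly and Srebf1. An unadjusted p below 0.05 was reached by 5 of 10, against 7.56% of all genes. These were Fasn, Elovl6, Scd1, Acaca and Acly, and the lowest adjusted p in edgeR was 0.482, for Fasn. The count of 5 was 0 when replicate 1 of 3 months was left out, and 0 when replicate 2 of 24 months was. At 30 months 2 of 10 genes, Fasn and Srebf1, were lower without overlap, against 20.2% of all genes, and none had an unadjusted p below 0.05, against 8.52%. At 12 months 2 of 10, Acaca and Scd2, were lower without overlap, against 19.2%, and 1 (Acaca) had an unadjusted p below 0.05, against 5.5%. None of the 10 was higher without overlap at 30, 24 or 12 months, against 21.1%, 20% and 19.3% of all genes.

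**Figure D2:**
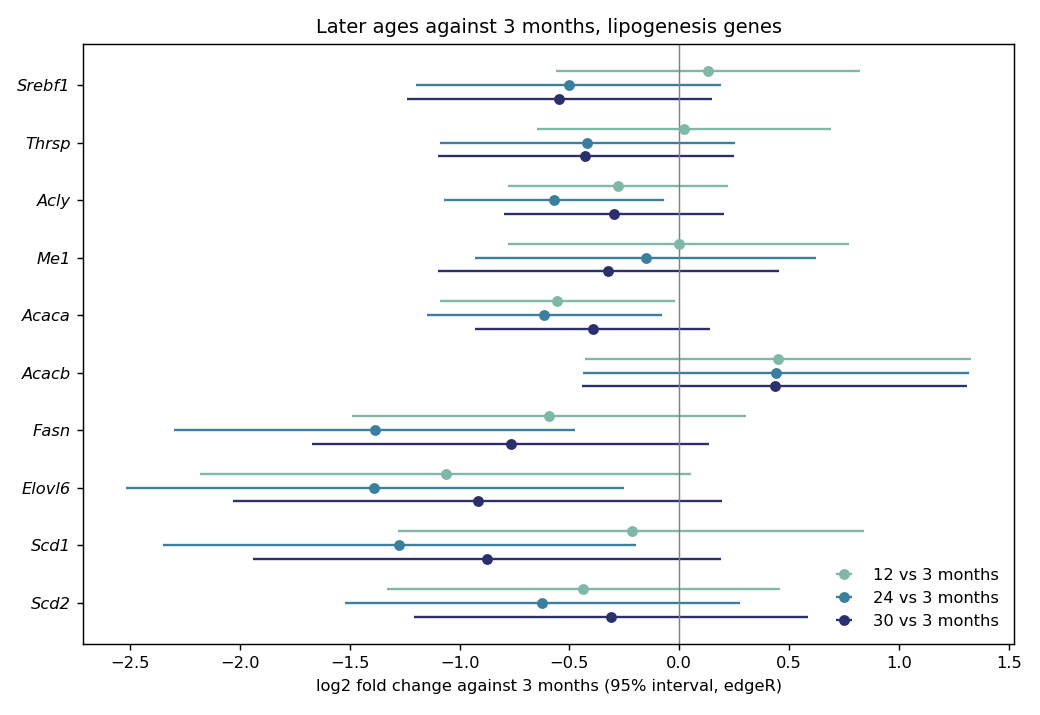
The log2 fold change (x axis) of each gene at 12, 24 and 30 months against 3 months, from edgeR over all 8 libraries, with 95% intervals as bars (not adjusted for the number of genes). Fasn at 24 months is the point whose interval lies farthest below 0 (−2.30 to −0.47), and Acacb lies at 0.44 to 0.45 at all 3 ages.

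Fasn encodes fatty acid synthase, which joins malonyl-CoA units into palmitate (chr11:120805846-120824547, minus strand of GRCm38). Its level was 69.4 and 36.9 CPM at 24 months, against 179 and 98.9 CPM at 3 months. The 12 month libraries had 71.0 and 113 CPM, and those of 30 months had 67.2 and 96.2 CPM. Every library of 24 and 30 months lay below both 3 month libraries, and those of 12 months overlapped them. It averaged 53.2 ± 23.0 CPM at 24 months, against 139 ± 56.5 CPM at 3 months (SD, n = 2 each). The log2 fold change at 24 months was −1.39 (SE 0.398), or 0.383-fold, with an adjusted p of 0.482 in edgeR. DESeq2 gave the same gene −1.39 with an adjusted p of 0.00811, and that was the only one of the 10 genes it called at 24 months, where it called 0.69% of all genes. At 30 months Fasn differed from 3 months by −0.76 (SE 0.393, adjusted p 0.659 in edgeR). Without replicate 1 of 3 months it was at −0.90 for 24 months and −0.28 for 30 months.

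The 2 acetyl-CoA carboxylase genes lay on opposite sides of 0. Acaca encodes the cytosolic form that feeds Fasn (chr11:84129672-84401651, plus strand). It was at 72.3 and 50.5 CPM in the 3 month libraries, 44.7 and 38.8 in those of 12, 45.4 and 34.8 in those of 24, and 38.2 and 55.2 in those of 30 months. The 4 libraries of 12 and 24 months lay below both of 3 months, and replicate 2 of 30 months lay between them. Its log2 fold change was −0.62 (SE 0.238) at 24 months, with an adjusted p of 0.603 in edgeR. Acacb encodes the form at the mitochondrial surface (chr5:114146535-114250761, plus strand). It was at 239 and 316 CPM in the 3 month libraries, 260 and 497 in those of 12, 296 and 457 in those of 24, and 485 and 266 in those of 30 months. It was the only one of the 10 with a positive log2 fold change at all 3 later ages, 0.44 at 30 months (SE 0.386, adjusted p 0.832 in edgeR), and its groups overlapped at each. At each later age 1 library lay inside the 3 month range and the other at 457 CPM or more.

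The ratio of Acacb to Acaca per exon length was 5.86 and 11.1 in the 3 month libraries, 10.3 and 22.7 in those of 12, 11.6 and 23.3 in those of 24, and 22.5 and 8.55 in those of 30 months. Acacb thus exceeded Acaca in all 8 libraries. The 3 ratios of 22.5 and above were those of the libraries with kidney markers below 1 CPM. The transcripts of the pair shared no stretch of 50 bases, and their longest reading frames were 71.4% identical.

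Scd1 and Scd2 encode stearoyl-CoA desaturases, which place the double bond that turns stearate into oleate. Scd1 (chr19:44394451-44407709, minus strand) was at 337 and 125 CPM in the 3 month libraries, 149 and 248 in those of 12, 110 and 81.0 in those of 24, and 152 and 99.3 in those of 30 months. Its 3 month libraries were far apart, with a mean of 231 ± 150 CPM (SD, n = 2), and those of 12 months lay between them. Both 24 month libraries were below both of 3 months, and the log2 fold change was −1.28 (SE 0.467, edgeR adjusted p 0.594). At 30 months it was −0.88 (SE 0.463). Without replicate 1 of 3 months these were −0.39 and 0.01. Scd2 (chr19:44293676-44306864, plus strand) was at 47.1 and 38.9 CPM in the 3 month libraries, 35.3 and 28.3 in those of 12, 37.0 and 18.8 in those of 24, and 22.4 and 46.8 in those of 30 months. Its 24 month log2 fold change was −0.62 (SE 0.39, adjusted p 0.732 in edgeR).

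Per exon length Scd1 exceeded Scd2 in every library, by 2.39 to 9.90 times. The reading frames of the 2 genes were 90.4% identical, with 145 stretches of 50 bases in common among 4888 in Scd1 and 5461 in Scd2. The sources used here do not state how reads matching both were counted, which leaves a part of each count uncertain.

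Elovl6 encodes the elongase that extends palmitate to stearate (chr3:129532355-129638495, plus strand). It was at 4.60 and 1.89 CPM in the 3 month libraries, 2.01 and 1.09 in those of 12, 1.53 and 0.935 in those of 24, and 1.25 and 2.16 in those of 30 months. Replicate 1 of 3 months was the highest of the 8 libraries, and the next was replicate 2 of 30 months. The log2 fold changes were −1.39 (SE 0.498) at 24 months and −0.92 (SE 0.488) at 30 months, with adjusted p of 0.587 and 0.668 in edgeR, and without replicate 1 of 3 months they were −0.62 and −0.14. The largest ratio of highest to lowest library among the 10 genes was its 4.92, next to 4.85 for Fasn and 4.16 for Scd1, and the other 7 had 2.04 to 2.63.

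Acly encodes ATP citrate lyase (chr11:100476353-100528000, minus strand). It was at 38.1 and 27.3 CPM in the 3 month libraries, 30.1 and 23.9 in those of 12, 25.4 and 18.7 in those of 24, and 23.7 and 29.5 in those of 30 months. Both 24 month libraries lay below both of 3 months, as did 1 library each of 12 and 30 months, and the log2 fold change was −0.57 (SE 0.222, edgeR adjusted p 0.604). Me1 encodes cytosolic malic enzyme, a source of NADPH (chr9:86581371-86695953, minus strand). It was at 130 and 149 CPM in the 3 month libraries, 115 and 163 in those of 12, 111 and 139 in those of 24, and 153 and 69.2 in those of 30 months. All 3 later ages overlapped 3 months, and replicate 2 of 30 months was the lowest of the 8. The log2 fold change at 30 months was −0.33 (95% interval −1.10 to 0.45, edgeR adjusted p 0.871).

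Srebf1 encodes SREBP-1, the membrane-bound transcription factor that drives lipogenic genes in liver (chr11:60199089-60222581, minus strand). It was at 58.2 and 66.6 CPM in the 3 month libraries, 46.5 and 90.3 in those of 12, 40.2 and 47.9 in those of 24, and 51.2 and 34.3 in those of 30 months. All 4 libraries of 24 and 30 months lay below both of 3 months, and the 12 month libraries were on either side of them. At 30 months the log2 fold change was −0.55 (SE 0.305, adjusted p 0.689 in edgeR), with −0.86 when replicate 1 of 30 months was left out and −0.28 when replicate 2 was. Exons of Srebf1 share 109 bases with Rai1 on the other strand and 66 with Mir6922, 3.11% of its exon bases in all. Shorter stretches are shared by Scd2 with Mir5114 (61 bases), Elovl6 with antisense Gm35986 (34) and Me1 with antisense A330041J22Rik (30), and without a stated strand setting such reads cannot be told apart. Thrsp encodes Spot 14, a nuclear protein tied to lipogenesis in liver and adipose tissue (chr7:97412938-97417730, minus strand). It was at 14.2 and 8.47 CPM in the 3 month libraries, 11.3 and 11.8 in those of 12, 9.50 and 7.44 in those of 24, and 6.26 and 10.6 in those of 30 months. The libraries of 12 months lay between those of 3 months, and at 24 and 30 months the groups overlapped (log2 fold change −0.42 and −0.43, SE 0.297 and 0.298). Without replicate 1 of 3 months those values were −0.0044 and −0.0086.

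Over the 4 ages, no gene was called in the test for any difference (0 of 10, against 0.0613% of all genes) or for a slope on age in months (0 of 10, against 0.133%), both in edgeR. The slope was below 0 for 9 of 10 genes, against 48.3% of all genes, and 3 had an unadjusted p below 0.05, against 9.83%. These were Scd1 (−0.0412 per month on the log2 scale, SE 0.0155), Srebf1 (−0.0256, SE 0.0103) and Fasn (−0.0345, SE 0.0145), with adjusted p of 0.411, 0.439 and 0.471. In the test across ages 1 gene, Fasn, had an unadjusted p below 0.05 (0.045), against 5.66% of all genes. Over 12, 24 and 30 months alone, 7 of 10 slopes were below 0, and those of Acaca, Elovl6 and Scd2 were above 0.

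Mean levels of Fasn, Scd1, Scd2, Elovl6, Acaca and Acly were lowest at 24 months. At 24 against 12 months all 10 log2 fold changes were below 0, against 49.6% of all genes, with a median of −0.31, and 0 of 10 genes were called in edgeR, against 0% of all genes. Scd1 (−1.06, SE 0.465), Fasn (−0.79, SE 0.394) and Srebf1 (−0.64, SE 0.306) were farthest below 0, and none of the 10 had an unadjusted p below 0.05, against 3.07%. Fasn, Scd1 and Thrsp were lower without overlap, against 14% of all genes. At 30 against 24 months 4 of 10 log2 fold changes were below 0, against 50.1% of all genes, with a median of 0.25 and Fasn at 0.62 (SE 0.393), and 0 of 10 were called, against 0%. At 30 against 12 months 7 of 10 were below 0, against 50.8%, with Srebf1 at −0.68 (SE 0.306, adjusted p 0.956), and 0 of 10 were called, against 0.00511%. None of the 10 had an unadjusted p below 0.05 in either, against 3.1% and 5.21% of all genes. Only Thrsp was lower without overlap at 30 against 12 months, against 15.7% of all genes, and none was higher, against 16.1%. DESeq2 called 1 of the 10 genes at 24 against 3 months and none in the other pairs, where it called 1.09% (30 against 3), 0.332% (12 against 3), 0.317% (30 against 12), 0.0204% (24 against 12) and 0% (30 against 24 months) of all genes. It called none across the ages or for the slope either, against 1.18% and 1.52%, and limma-voom called none of the 10 in any comparison, where it called 0.118% (30 against 3), 0.0511% (24 against 3), 0.0358% (12 against 3), 0.00511% (30 against 12) and 0% (both other pairs) of all genes, and 0.0409% across the ages and 0.118% for the slope.

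The 2 libraries of a later age differed along the kidney marker sets, and the genes split into groups by the direction. Acly, Acaca, Elovl6 and Scd2 were higher in the library above 1 CPM of kidney markers at 12, 24 and 30 months, as were 22.2% of all genes. Elovl6 differed by 0.88, 0.71 and 0.79 on the log2 scale and Scd2 by 0.32, 0.98 and 1.06, in order of age. Srebf1, Me1 and Acacb were lower in that library at all 3 ages, as were 21.2% of all genes. Acacb differed by −0.93, −0.63 and −0.86, Me1 by −0.51, −0.33 and −1.15, and Srebf1 by −0.96, −0.25 and −0.58. Fasn, Scd1 and Thrsp were on different sides of 0 at different ages. Because both 3 month libraries belong to the higher set, 3 months offers no such contrast. The 3 libraries below 1 CPM also stood apart in clock genes. Dbp was at 65.3, 81.1 and 70.8 CPM and Per2 at 34.1, 33.0 and 25.7 CPM in those of 12, 24 and 30 months, against 8.32 to 30.8 and 3.56 to 9.37 CPM in the other 5. Npas2, a partner of the clock activator, was at 0.195, 0.429 and 0.703 CPM, against 3.16 to 5.49 CPM, and the 13 clock genes together at 736, 848 and 755.5 CPM, against 467.6 to 586.8 CPM. The set term therefore follows clock gene levels as well as kidney transcripts, and the part of either in the members' differences was not tested.

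**Figure D3:**
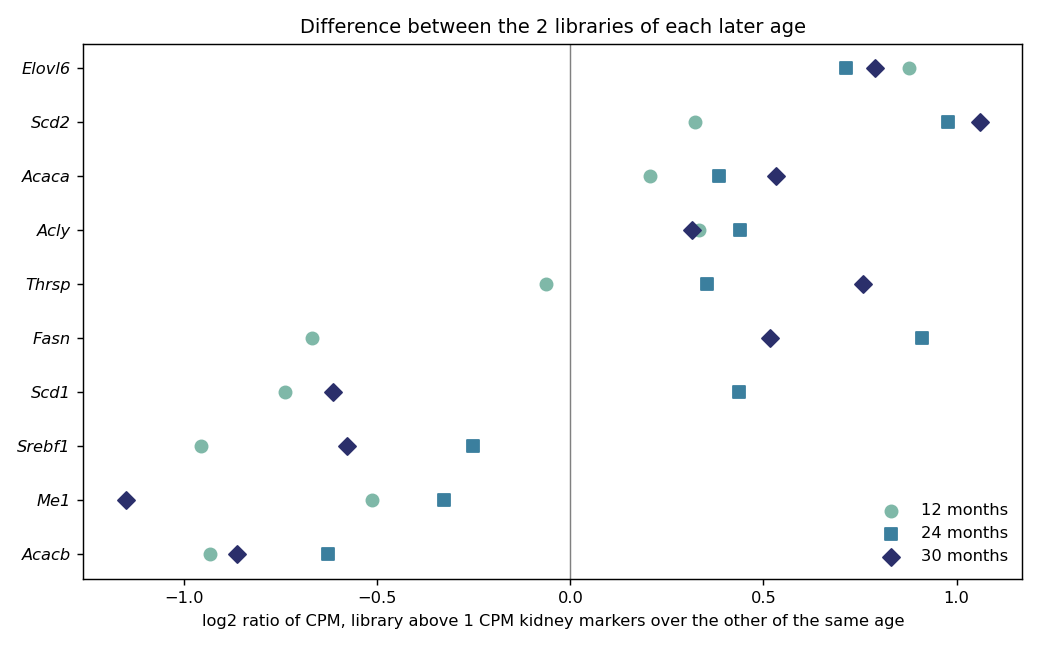
The log2 ratio of CPM (x axis) between the library above and the library below 1 CPM of summed kidney markers at 12, 24 and 30 months, for each gene. Elovl6, Scd2, Acaca and Acly lie to the right of 0 at all 3 ages, and Srebf1, Me1 and Acacb lie to the left at all 3.

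With the set of each library as a further term in the edgeR fit, a term added after these values were known, Srebf1 was the one gene called. Its log2 fold change at 30 months was −0.87 (SE 0.179, adjusted p 0.0306), where 2.13% of all genes were called, and its slope was −0.0352 per month (SE 0.00569, adjusted p 0.0112), where 1.51% were. None of the 10 was called with this term at 24 or 12 against 3 months, 30 against 12 months or across the ages, where 0.363%, 0.148%, 0.281% and 1.04% of all genes were. Acacb went to −0.03 at 30 months (SE 0.181), and Me1 to −0.75 (SE 0.207, adjusted p 0.101). Me1 ran from −1.01 (without replicate 1 of 30 months) to −0.28 (without replicate 2 of 30 months), and was called without replicate 1 of 24 months (adjusted p 0.0379), replicate 2 of 24 months (0.0271) or replicate 1 of 30 months (0.015), fits that called 569, 584 and 437 of all genes. Fasn stayed at −1.29 at 24 months, with its SE at 0.527 and an adjusted p of 0.591. Leaving out 1 library in turn, the Srebf1 value at 30 months ran from −0.97 to −0.77. The call was lost without replicate 1 of 3 months (adjusted p 0.0683), replicate 2 of 3 months (0.17), replicate 1 of 30 months (0.0613) or replicate 2 of 30 months (0.281). The slope's call was lost without replicate 2 of 3 months (0.057) or of 30 months (0.0744). At 24 months Srebf1 was called only without replicate 1 of 24 months (−1.15, adjusted p 0.0405), where 104 of all genes were.

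The fit depended on where the 3 month libraries were put. Placed with the set below 1 CPM instead, Srebf1 was at −0.28 at 30 months (adjusted p 0.502 in edgeR), and Acacb was called there at 0.78 (SE 0.18, adjusted p 0.0438), where 2.92% of all genes were called. At 24 months that placement called 5 of 10 genes, where 5.03% of all genes were called. They were Scd2 at −1.10, Elovl6 at −1.83, Acaca at −0.82 and Acly at −0.77, with Acacb at 0.81. The design holds no 3 month library below 1 CPM, so age and set at 3 months cannot be told apart for these genes.

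Some of the genes were also ordered within an age as other cell markers were. Adipocyte markers, 12 genes such as Adipoq, Fabp4 and Cfd, summed to 242 and 175 CPM in the 3 month libraries, 186 and 248 in those of 12, 230 and 156 in those of 24, and 153 and 235 in those of 30 months. Schwann cell and myelin markers, 10 genes such as Mbp, summed to 154 and 85.0 CPM, 86.9 and 117 CPM, 120 and 58.6 CPM, and 95.5 and 189 CPM, in order of age. Fasn and Thrsp were higher in the library with the higher sum at 4 of 4 ages. The 2 lists order the libraries alike at every age, so this is 1 comparison. Acly, Acaca, Elovl6, Scd1 and Scd2 had that order at 3 ages, and Srebf1, Me1 and Acacb at 1. Srebf1, Me1 and Acacb were higher in the library with the higher muscle sum at 4 of 4 ages. The muscle sum orders the libraries opposite to the kidney sum at every age, so at the later ages this repeats the kidney marker split. The share of all genes with such orders was not computed. Replicate 2 of 24 months, the lowest library for Fasn, Scd1, Scd2, Elovl6, Acly and Acaca, had the highest muscle sum and the lowest Schwann sum. The part of these cells in the age differences was not tested. The adipocyte list had no call at 30, 24 or 12 months in edgeR, with medians of −0.25, −0.36 and 0.08 on the log2 scale, and neither did the Schwann list, with medians of 0.36, −0.26 and −0.21.

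**Figure D4:**
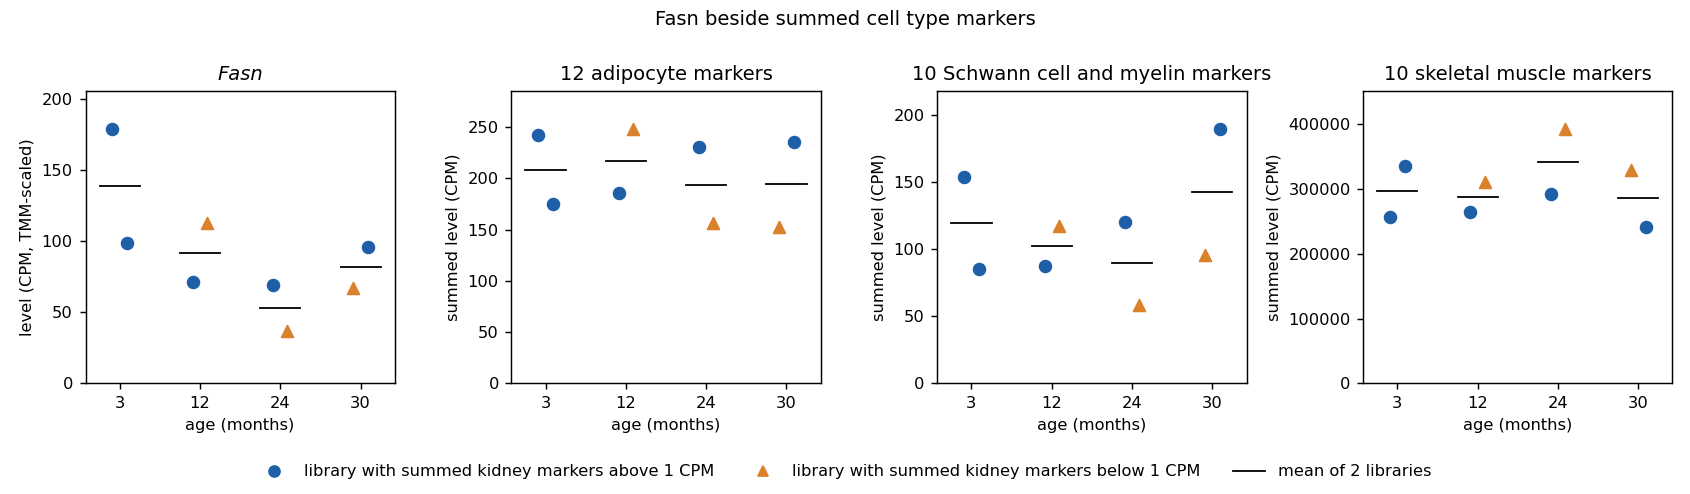
Fasn (CPM) and the summed CPM of adipocyte, Schwann cell and skeletal muscle markers in each library against age in months (linear axes from 0; bars, mean of 2 libraries). At each age the library higher in Fasn is higher in the adipocyte and Schwann sums. At 24 months Fasn averages 53.2 CPM, and the adipocyte sum of 230 and 156 CPM overlaps the 242 and 175 CPM of 3 months. That sum is weighted to its most abundant genes, Fabp4 and Cfd. Of the 12 adipocyte markers, 9 had a log2 fold change below 0 at 24 against 3 months.

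Fabp4, which encodes a fatty acid binding protein, was at 88.5 and 79.9 CPM at 24 months, against 90.7 and 76.4 CPM at 3 months. Cfd, which encodes adipsin, was at 69.8 and 33.8 CPM, against 72.7 and 45.2 CPM. Lipe, the hormone-sensitive lipase, was at 21.1 and 20.5 CPM, against 17.7 and 19.9 CPM. At 24 months these 3 most abundant of the 12 adipocyte markers were at 0.01, −0.18 and 0.14 on the log2 scale from 3 months. Of the 12, 3 were above 0 and 9 were below, down to −0.61 for Retn. Adipoq was at −0.21, Cidec at −0.29 and Plin1 at −0.43, so the most abundant markers do not stand for the list.

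The genes varied in groups over the 8 libraries, given here as a description over libraries that share age and set. Acaca, Acly and Elovl6 correlated at Pearson r of 0.93 to 0.97 in log2 CPM, and Scd2 with each of them at 0.84 to 0.89. Acacb ran opposite to these 4, at −0.83 to −0.88. Srebf1 and Me1 correlated at 0.81. Fasn correlated with Acly at 0.83 and with Scd1 and Acaca at 0.80, but with Srebf1 at 0.38 and Me1 at −0.05. Srebf1 itself correlated with Acaca at −0.13, Acly at −0.06 and Elovl6 at −0.13, and with Scd1 at 0.63.

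The mean standardised level of the 10 genes (a z-score over the 8 libraries) was 1.09 and 0.199 in the 3 month libraries, −0.0316 and 0.398 in those of 12, −0.296 and −0.862 in those of 24, and −0.326 and −0.171 in those of 30 months. Replicate 1 of 3 months was thus the highest library and replicate 2 of 24 months the lowest. Among 9643 other genes of an average log2 CPM of at least 2, those most like this mean by Pearson r over the 8 libraries were Magi3 (0.95), Coa6 (0.95), Emc6 (0.94), Dusp19 (0.94), Bcl2l1 (0.93), Slc35a1 (0.93), Hacd3 (0.93), Kank3 (0.93), Rpp14 (0.92) and Ccdc51 (0.92). Hacd3 encodes a dehydratase of fatty acid elongation. For Fasn alone, the 5 most alike were Ccdc51 (0.96), Bcl2l1 (0.95), Slc38a6 (0.94), Luc7l (0.93) and Slc9a3r2 (0.93). Both lists are the highest values among 9643 genes over only 8 libraries. How high unrelated genes would reach was not computed, so the lists only describe these libraries. The mean also pools genes that ran opposite to each other, such as Acaca and Acacb.

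Genes around the pathway showed no call in edgeR at 30, 24 or 12 months. Of 14 other regulators of lipogenesis, 8 had a log2 fold change below 0 at 30 months, with a median of −0.02, and 8 at 24 months, with a median of −0.04. Ppargc1b, which encodes the coactivator PGC-1β, was at 22.3 and 17.1 CPM at 30 months, and at 17.6 and 18.8 CPM in the 24 month libraries, against 11.2 and 10.9 CPM at 3 months. Both 30 month libraries lay above both of 3 months, as for 21.1% of all genes, and so did both of 24 months, as for 20%. Ppargc1b was named for its low p across the 4 ages, which favours such a separation. Its log2 fold change at 30 months was 0.83 (edgeR adjusted p 0.207). The fit with the set term called Ppargc1b at 0.66 (SE 0.146, adjusted p 0.0425), where 2.13% of all genes were called. Scap, the escort protein of SREBPs, was at 0.47 (adjusted p 0.535) and Srebf2, the sterol-directed SREBP, at 0.28 (adjusted p 0.758) at 30 months. Mlxipl, which encodes the carbohydrate-responsive factor ChREBP, was at 40.5 and 40.8 CPM at 30 months, against 38.3 and 43.0 CPM at 3 months; it was singled out after its values were seen.

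Among 15 other elongation and desaturation genes that passed the filter, 10 were below 0 at 30 months, with a median of −0.16, and 12 at 24 months, with a median of −0.23. Hacd1, the muscle form of the elongation dehydratase, was at 32.1 and 22.2 CPM at 30 months, against 50.1 and 44.5 CPM at 3 months. It differed by −0.80 (edgeR adjusted p 0.309). In the fit with the set term it differed by −1.03 and was called (adjusted p 0.00669), where 2.13% of all genes were called. Fads6, a desaturase family member, was at 16.3 and 18.8 CPM at 30 months, against 12.1 and 11.2 CPM at 3 months, a log2 fold change of 0.59 (adjusted p 0.259), and Hacd2 was at −0.46 (adjusted p 0.657). Both libraries of 30 months were above both of 3 months for Fads6, as for 21.1% of all genes. Fads6 too was named for its low p across the ages.

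Of 9 tested genes for citrate export and NADPH supply, 5 were below 0 at 30 months, with a median of −0.0018. Slc25a1, the mitochondrial citrate carrier, was at −0.23, Tkt at −0.14 and Taldo1 at −0.0018, the last 2 being enzymes of the pentose phosphate pathway, with adjusted p of 0.873, 0.897 and 1. Of 12 genes of glycerolipid assembly, 5 were below 0, with Lpin1, a phosphatidate phosphatase, at −0.39, Lpin2 at 0.23 and Agpat1 at 0.13 (adjusted p 0.677, 0.791 and 0.932). Of 11 genes for AMP-activated kinase, malonyl-CoA decarboxylase and carnitine palmitoyltransferase 1, 5 were below 0 and the median was 0.04. Prkag3, the kinase's glycolytic muscle subunit, was at 198 and 96.8 CPM at 30 months, against 100 and 130 CPM at 3 months. Prkab1 was at 0.24 (SE 0.226) and Cpt1c at 0.04 (SE 0.223) on the log2 scale.

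In mitochondrial fatty acid synthesis 4 of 7 genes were below 0 at 30 months, with Mcat at −0.12, Oxsm at −0.02 and Mecr at 0.25 (adjusted p 0.878, 0.985 and 0.688). Of 20 cholesterol synthesis genes, the other branch that SREBPs serve, 9 were below 0 and the median was 0.04. Mvd, which encodes mevalonate diphosphate decarboxylase, was at 0.36 (adjusted p 0.58). The summed level of the cholesterol list was 206 and 199 CPM at 30 months, against 216 and 202 CPM at 3 months. At 24 months 8 of the 20 were below 0 and the median was 0.04, against 9 of 10 and −0.59 for the lipogenesis genes. The difference between the lists was not tested.

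The remaining marker lists had no call at 30, 24 or 12 months in edgeR either. Kidney markers were below 0 for 10 of 11 tested genes at 30 months, with a median of −3.97. Lrp2 was at 0 and 0.658 CPM at 30 months, against 14.5 and 4.47 CPM at 3 months, Kap at 0.022 and 0.263 CPM, against 15.1 and 3.78 CPM, and Slc34a1 at 0 and 0.696 CPM, against 5.57 and 2.54 CPM. Fibroadipogenic progenitor markers, headed by Dcn, Pdgfra and Cd34, were below 0 for 5 of 6 genes, with a median of −0.34. Macrophage markers were above 0 for 5 of 6, with a median of 0.44, where Mrc1 was at 0.09, Csf1r at 0.34 and Cd163 at −0.14. Of 2 tested brown fat markers both were above 0, and Dio2, a thyroid hormone deiodinase, was called in the fit with the set term (1.245, adjusted p 0.00786). Clock output genes, led in level by Tef, Nr1d2 and Clock, were above 0 for 8 of 13, with a median of 0.295. With the set as a term, the macrophage genes Adgre1 (1.08), C1qa (0.81) and Csf1r (0.66) were called at 30 months too, with edgeR adjusted p of 0.00956, 0.0204 and 0.0399. The clock genes Dbp (0.94), Per2 (0.78), Per3 (0.70) and Per1 (−0.79) were called as well, with 0.0413, 0.029, 0.0474 and 0.0205. That fit called 2.13% of all genes. The sets themselves differ in clock gene levels. For these genes, Dio2, Ppargc1b and Hacd1, the other placement of the 3 month libraries was not examined.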

How the data were processed

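Total RNA of frozen gastrocnemius was made into paired-end libraries, per the labels' protocols. The authors deposited whole-number counts per Ensembl gene, not normalized. Per the submitters' processing notes, Trimmomatic 0.36, STAR 2.5.2b, featureCounts and Subread 1.5.2 were used with builds GRCm38 and mm10. The annotation release, strand setting and treatment of reads with several matches are not given here by any source. Symbols matched 48970 of 49315 identifiers. Exon positions and lengths were those deposited with the counts, and GENCODE M21 on GRCm38 gave gene types and the transcripts compared. Gene spans equalled those of GENCODE M21 for 44858 identifiers, but not for Scd1 and Scd2.

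Counts were fitted in R 4.3.3 with edgeR 4.0.16 (filterByExpr, TMM, robust quasi-likelihood, all 8 libraries, 4 residual degrees of freedom) and p-values were adjusted by Benjamini-Hochberg over 19571 genes. Standard errors are the log2 fold change over the square root of F. Alternatives were DESeq2 1.42.0, limma-voom 3.58.1, other scalings and filters, a replicate block, only the libraries compared, and each library left out, where a lone library of an age is taken to vary as the other ages do. The library set term, the crossed pairing and later ages alone were added after seeing the data. Only the edgeR comparison between a pair of ages was tried on simulated counts, and its outcome is not reported here. The slope, the test across ages, the alternatives and the later additions were not tried on simulated counts.

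The members and lists were chosen with earlier results of these data known. All 10 members are named, with the 3 genes of lowest p across ages per companion list, or the 3 of highest level for markers and clock genes, plus genes called; a few genes this rule names are not reported here. The intervals cover the spread between libraries, with 2 libraries per age.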

Additional observations from a re-analysis of the deposited data

How the results depend on the processing

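The count of genes called was 0 of 10 in the fits without a set term or a crossed pairing, except in DESeq2. DESeq2 called 1 gene (Fasn) at 24 against 3 months, and the library set as a term called 1 gene (Srebf1) at 30 against 3 months and 1 (Srebf1) for the slope. A crossed pairing was also chosen after seeing the data. At 30 against 12 months it blocked replicate 1 of 12 months with replicate 2 of 30 months, and the other libraries of these ages together. These blocks are the kidney marker sets, so that fit repeats the set term on 4 libraries and is not separate evidence. It called 2 genes, Srebf1 at −0.62 (edgeR adjusted p 0.0389) and Scd1 at −0.64 (adjusted p 0.0223), where 1.27% of all genes were called. With the 3 month libraries placed with the other set, Srebf1 was at −0.28 and its slope at −0.0178, and Acacb was called at 30 months and 5 genes at 24 months. With the set term and 1 library left out, Me1 was called at 30 months in 3 of 8 fits and Srebf1 at 24 months in 1. With each library left out and no set term, 0 genes were called in each comparison, 8 to 9 were below 0 at 30 months, 8 to 9 at 24 months and 5 to 10 at 12 months.

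The replicate numbers did not pair the libraries: correlations of the deviations of same-numbered libraries ran from −0.357 to 0.262 over the 6 pairs of ages. The fit with the replicate number as a block called 0 of the 10 genes in every comparison, and 13 of all genes at 30 against 3 months.

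Single genes reversed under some settings; the cause was not tested. With the set as a term, Acacb was at −0.0316 at 30 months and −0.0285 at 12 months, with a slope of −0.00043, and Srebf1 at −0.23 at 12 months. At 12 months Thrsp was at −0.0395 by library totals and −0.0143 under the stricter filter, and Me1 at 0.0043 with no filter. Slopes over 12, 24 and 30 months alone were 0.0072 for Acaca, −0.00066 for Acacb, 0.0037 for Elovl6 and 0.003996 for Scd2. Leaving out 1 library, the values at 30 months ran from −1.01 to 0.14 for Me1, −0.0602 to 0.81 for Acacb, −1.419 to 0.0103 for Scd1 and −0.93 to 0.12 for Scd2. Me1 ran from −0.33 to 0.0036 at 24 months. At 12 months they ran from −0.43 to 0.53 for Srebf1, −0.30 to 0.44 for Thrsp, −0.29 to 0.23 for Me1, −0.10 to 0.84 for Acacb and −0.76 to 0.67 for Scd1, and Fasn at 30 against 12 months from −0.47 to 0.21.

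Counts over all genes depended on the setting: 29 were called at 30 against 3 months, with 9 under the stricter filter, 214 in DESeq2, 378 with no filter and 416 with the set as a term. At 24 months 20 were called, with 8, 135, 233 and 71 in that order, and at 12 months 8, with 5, 65, 134 and 29. With 2 libraries per age, the intervals of Fasn, Scd1, Elovl6, Acacb and Scd2 between ages span more than 1.7 on the log2 scale.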
